A study of Mus musculus with 14 samples.

Results

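The genes described here are 10 genes of the urothelium, the epithelium that lines the renal pelvis, the ureter, and the bladder. They were taken by symbol from the 21878 genes measured in each kidney, and all 10 were found and passed the filter on low values, as did 14912 genes in all. They are 5 uroplakins (*Upk1a*, *Upk1b*, *Upk2*, *Upk3a*, and *Upk3b*), the surface protein gene *Psca*, the transcription factor gene *Grhl3*, and 3 keratins of basal cells (*Krt5*, *Krt14*, and *Krt15*). They were selected on their FPKM in the comparison of *Cfb*-/- with WT diabetic mice, in which most of them were lower, so that comparison is given as a description and without a test.

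Kidney RNA was sequenced from 14 male C57BL/6J mice, of which 8 were diabetic (4 *Cfb*-/- and 4 WT) and 6 were controls (3 *Cfb*-/- and 3 WT). *Cfb* encodes complement factor B, the protease component of the alternative complement pathway. Diabetic mice received a high-fat diet (60% of calories from fat) for 4 weeks and then streptozotocin (STZ), a toxin of pancreatic β cells, at 60 mg/kg on 5 days. Controls had citrate buffer injected and were fed chow in which fat gave 10% of calories. By the study's methods the mice were 8 weeks old at the start and were killed 21 weeks after STZ, while the labels give 34 weeks with no starting point. The labels name the allele a knockdown and repeat 1 treatment description for all mice, so groups follow the sample titles. The tissue is labelled only as kidney, and which region went into each library is not given in the sources used here.

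The umbrella cells at the surface of the urothelium carry rigid plaques made of uroplakins, in which the tetraspanin UPK1A pairs with UPK2 and the tetraspanin UPK1B with UPK3A or UPK3B, and the plaques form a barrier against urine. Basal cells beneath them contain keratin 5, and some also contain keratin 14 or 15. Tubules and glomeruli make up nearly all of the kidney and are not known for uroplakin plaques, while the pelvis and the surface of the papilla are lined by urothelium or a related epithelium, so RNA of these genes in a kidney piece is commonly read as RNA of that lining. *Upk3b* and *Upk1b* are also used as markers of mesothelium, the covering of the organ's outer surface.

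All 10 genes are protein coding in the RefSeq annotation of GRCm38.p6, the build that the submitters' processing notes name. *Upk1a* lies on chromosome 7 (30603092 to 30612734), *Upk1b* on chromosome 16 (38773182 to 38800203), *Upk2* on chromosome 9 (44452715 to 44454767), *Upk3a* on chromosome 15 (85017141 to 85022560), and *Upk3b* on chromosome 5 (136038496 to 136044993). *Grhl3* lies on chromosome 4 (135541887 to 135573632). *Psca* lies on chromosome 15 (74714839 to 74717065), as does *Krt5* (101707069 to 101712905), and *Krt14* (100203162 to 100207510) and *Krt15* (100131759 to 100135949) both lie on chromosome 11. *Upk3a* overlaps the annotated gene *Gm52194* and *Grhl3* overlaps *Gm30888*. Of windows of 75 bases along the GENCODE transcripts of each gene, 110 of 2123 in *Krt5* also occurred in transcripts of *Krt6a*, *Krt6b*, *Gm5414*, or *Gm5478*, and 96 of 1682 in *Krt14* also occurred in *Krt16*. These were 5.18% and 5.71% of the windows, and the other 8 genes shared none.

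Promoter windows, from 250 bases before to 50 bases after a transcription start, were held by the RefSeq table for 6 of the 10 genes. The *Krt14* window (chr11:100205981-100206280, minus strand) lies inside the gene, which ends at 100207510. It therefore does not describe the outermost start of *Krt14*. Those of *Upk1a*, *Upk3a*, and *Krt5* are shown because they are 1 gene from each uroplakin pair and 1 gene of basal cells. The *Upk1a* window is chr7:30612685-30612984 (minus strand), the *Upk3a* window is chr15:85016891-85017190 (plus strand), and the *Krt5* window is chr15:101712856-101713155 (minus strand), all in GRCm38.p6. Each is written 5′ to 3′ with capitals where a searched motif matched on either strand.
Upk1a: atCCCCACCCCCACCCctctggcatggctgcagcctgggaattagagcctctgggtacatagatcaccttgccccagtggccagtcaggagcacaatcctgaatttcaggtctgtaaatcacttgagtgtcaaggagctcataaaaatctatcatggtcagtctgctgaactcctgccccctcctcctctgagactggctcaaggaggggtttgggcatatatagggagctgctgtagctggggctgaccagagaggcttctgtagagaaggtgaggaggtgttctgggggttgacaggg
Upk3a: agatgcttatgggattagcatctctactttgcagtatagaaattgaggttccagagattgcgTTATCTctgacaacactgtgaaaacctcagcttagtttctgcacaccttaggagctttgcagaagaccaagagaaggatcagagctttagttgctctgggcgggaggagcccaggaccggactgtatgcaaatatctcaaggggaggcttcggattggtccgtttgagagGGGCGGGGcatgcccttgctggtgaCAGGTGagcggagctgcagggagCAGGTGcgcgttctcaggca
Krt5: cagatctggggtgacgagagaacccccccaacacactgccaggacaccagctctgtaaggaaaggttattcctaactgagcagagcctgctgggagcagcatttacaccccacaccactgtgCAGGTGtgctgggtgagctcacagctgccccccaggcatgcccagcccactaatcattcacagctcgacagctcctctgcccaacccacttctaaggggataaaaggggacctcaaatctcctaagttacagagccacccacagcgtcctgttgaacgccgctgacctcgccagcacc

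Of 8 motifs searched on both strands, 5 matched none of the 6 windows. These were the grainyhead motif AACCGGTT and its looser form AACCNGTT, which every match of the former also matches, the AP-1 motif TGANTCA, the TATA box TATAAA, and the forkhead motif TGTTTNC. They occur in 0.146%, 2.09%, 7.81%, 13.6%, and 20.5%, respectively, of all 32851 promoter windows of the same length. The GATA motif AGATAA was present in *Upk3a* alone (11.2% of all windows), the KLF motif CCNCNCCC in *Grhl3*, *Upk1a*, and *Upk3a* (49.5%), and the E-box CACCTG in *Grhl3*, *Upk3a*, and *Krt5* (20.2%). Thus no motif of the 8 was shared by all 6 windows, and the matches describe letters, not binding.

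Levels are given in FPKM, fragments scaled to transcript length and to sequencing depth, as the authors deposited them. Read depth is not given, and the values summed to between 330246 and 488196 FPKM per mouse. A relative depth estimated from the steps between low values ranged from 0.839 to 1. This estimate was not checked against read counts, and the part of depth in the spread of these genes was not tested. *Cfb* checked the genotypes, at 1.13 to 2.22 FPKM in the 7 *Cfb*-/- mice and at 56.7 to 131 FPKM in the 7 WT mice. The tubular identity of the tissue was plain in each mouse, with 8435 to 72760 FPKM for the sum of 10 proximal tubule genes. In bulk RNA, fewer cells of a type and less RNA per cell cannot be told apart.

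*Upk2*, whose product is the partner of UPK1A, was the clearest case of a pattern of single mice. In WT diabetic mice 1 to 4 it was measured at 0, 6.16, 8.59, and 2.58 FPKM, respectively. In WT controls 1 to 3 it was at 0.0720, 0, and 0 FPKM. Thus 3 of the 4 WT diabetic mice were far above the WT controls and 1 was not, and the groups overlapped. In *Cfb*-/- controls 1 to 3 *Upk2* was at 2.22, 0.0651, and 1.66 FPKM, and in *Cfb*-/- diabetic mice 1 to 4 at 0.0642, 0, 0.0642, and 0.136 FPKM. *Cfb*-/- controls 1 and 3 therefore had more *Upk2* than any *Cfb*-/- mouse with diabetes. The smallest value above 0 was 0.0642 FPKM, and *Cfb*-/- diabetic mouse 4 was at 2.12 times that value, so levels in this range rest on very few fragments.

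*Upk1a* was the most abundant uroplakin by its mean over all mice (3.08 FPKM) and was above 0 in all 14. It was measured at 0.437, 11.9, 15.3, and 3.53 FPKM in WT diabetic mice 1 to 4 and at 0.399, 0.228, and 0.254 FPKM in WT controls 1 to 3. In *Cfb*-/- controls 1 to 3 it was at 3.0, 0.397, and 3.08 FPKM, and in *Cfb*-/- diabetic mice 1 to 4 at 1.15, 0.848, 1.10, and 1.51 FPKM. Again WT diabetic mouse 1 and *Cfb*-/- control mouse 2 sat apart from their groups, while the 4 *Cfb*-/- diabetic mice lay close together. Its relative *Upk1b* was at 0.0580, 4.58, 6.88, and 2.68 FPKM in WT diabetic mice and at 0, 0.0828, and 0.0256 FPKM in WT controls. *Upk1b* was at 1.10, 0.0747, and 1.16 FPKM in *Cfb*-/- controls and at 0.145, 0.181, 0.181, and 0.436 FPKM in *Cfb*-/- diabetic mice. Mouse 3 was the highest and mouse 1 the lowest for both tetraspanins among WT diabetic mice, as were mice 3 and 2 among *Cfb*-/- controls, while the order differed in the other 2 groups.

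*Upk3a*, whose product is the usual partner of UPK1B in the plaque, was at 0, 9.35, 10.2, and 4.56 FPKM in WT diabetic mice 1 to 4 and at 0, 0.218, and 0 FPKM in WT controls. It was at 1.64, 0.0472, and 2.30 FPKM in *Cfb*-/- controls and at 0.135, 0, 0.179, and 0.756 FPKM in *Cfb*-/- diabetic mice. *Upk3b* was at 0.291, 7.19, 3.35, and 1.03 FPKM in WT diabetic mice and at 0.0801, 0.241, and 0.0249 FPKM in WT controls. It differed from the other uroplakins in its order, since WT diabetic mouse 2 and not mouse 3 was the highest. *Upk3b* was at 1.04, 0.0953, and 1.48 FPKM in *Cfb*-/- controls and at 0.861, 0.296, 0.456, and 0.828 FPKM in *Cfb*-/- diabetic mice.

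*Psca*, which encodes a lipid-anchored surface protein of urothelium and some other epithelia, had the highest FPKM of the 10 genes in 13 of 14 mice, the exception being WT control mouse 1, where *Upk1a* was higher. It was at 3.10, 51.3, 26.8, and 8.90 FPKM in WT diabetic mice 1 to 4 and at 0.0652, 0.431, and 0.354 FPKM in WT controls. It was at 13.4, 0.704, and 11.9 FPKM in *Cfb*-/- controls and at 8.76, 3.64, 2.65, and 4.98 FPKM in *Cfb*-/- diabetic mice. Each diabetic mouse of either genotype therefore had more *Psca* than each WT control mouse. For the *Cfb*-/- diabetic mice that comparison mixes genotype with diabetes. Among *Cfb*-/- mice the groups overlapped, and controls 1 and 3 were above each diabetic mouse. *Grhl3*, a regulator of terminal differentiation in umbrella cells, was low throughout. It was at 0.188, 0.342, 0.585, and 0.349 FPKM in WT diabetic mice, at 0.0319, 0, and 0 FPKM in WT controls, at 0.262, 0.0296, and 0.120 FPKM in *Cfb*-/- controls, and at 0.0566, 0.0907, 0.0839, and 0.119 FPKM in *Cfb*-/- diabetic mice.

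Among the basal keratins, *Krt5* was at 0.195, 2.26, 4.64, and 1.32 FPKM in WT diabetic mice 1 to 4 and at 0, 0.0803, and 0 FPKM in WT controls. It was at 0.763, 0.0229, and 0.584 FPKM in *Cfb*-/- controls and at 0.262, 0.187, 0.0858, and 0.251 FPKM in *Cfb*-/- diabetic mice. *Krt15* was at 0.0307, 2.48, 4.80, and 2.92 FPKM in WT diabetic mice and at 0, 0.135, and 0 FPKM in WT controls. Genes of the basal layer and of the surface layer were thus high in the same mice. *Krt15* was at 1.28, 0.0290, and 1.38 FPKM in *Cfb*-/- controls and at 0.302, 0.0888, 0.189, and 0.433 FPKM in *Cfb*-/- diabetic mice. *Krt14* had the lowest mean of the 10 genes (0.0971 FPKM) and was listed at 0 in 8 of 14 mice. It was at 0, 0.174, 0.573, and 0.411 FPKM in WT diabetic mice, at 0.0332 FPKM in WT control mouse 2, at 0.113 FPKM in *Cfb*-/- control mouse 3, at 0.0556 FPKM in *Cfb*-/- diabetic mouse 4, and at 0 in all others.

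**Figure D1:**
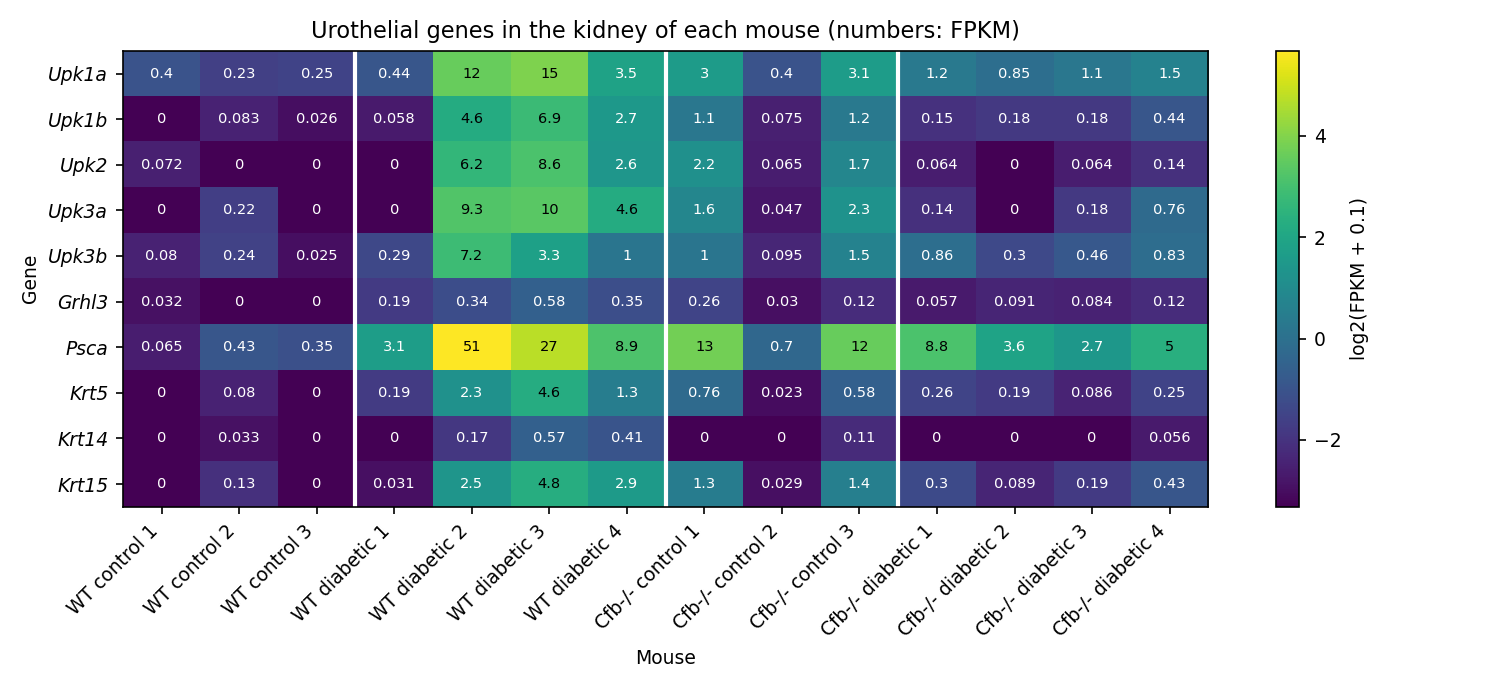
Level of each urothelial gene (rows) in each of the 14 mice (columns, white lines between groups), with the FPKM printed in each field and the color showing log2(FPKM + 0.1). In each row WT diabetic mouse 1 and *Cfb*-/- control mouse 2 are the darkest, or tied darkest, of their groups. *Grhl3* and *Krt14* are low throughout.

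By mean FPKM over the 14 mice, the order was *Psca* (9.78), *Upk1a* (3.08), *Upk3a* (2.10), *Upk2* (1.54), *Upk1b* (1.26), *Upk3b* (1.23), *Krt15* (1.01), *Krt5* (0.761), *Grhl3* (0.161), and *Krt14* (0.0971). The spread between mice within a group was large. The mean of *Upk2* was 4.33 ± 3.80 FPKM (SD, n = 4) over the WT diabetic mice and 1.31 ± 1.12 FPKM (SD, n = 3) over the *Cfb*-/- controls. The genes were measured in the same mice, so this spread does not measure how certain the order is. The order was not tested. The sum over the 10 genes was 4.30, 95.7, 81.8, and 28.3 FPKM in WT diabetic mice 1 to 4 and 24.7, 1.47, and 23.8 FPKM in *Cfb*-/- controls 1 to 3. It was 11.7, 5.33, 4.99, and 9.50 FPKM in the *Cfb*-/- mice with diabetes and 0.649, 1.45, and 0.658 FPKM in WT controls. WT diabetic mouse 1 was thus below each *Cfb*-/- diabetic mouse, and *Cfb*-/- control mouse 2 was close to WT control mouse 2.

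Within the WT diabetic and *Cfb*-/- control groups, the same mouse was low for the 10 genes. WT diabetic mouse 1 was the lowest of its group for 10 of 10 genes, and *Cfb*-/- control mouse 2 was the lowest or tied lowest of its group for 10 of 10. The highest WT diabetic mouse was mouse 3 for 8 genes and mouse 2 for the remaining 2, *Upk3b* and *Psca*. Among *Cfb*-/- diabetic mice, mouse 4 was the highest for 7 genes and mouse 1 for 3 (*Upk3b*, *Psca*, and *Krt5*), while mouse 2 was the lowest or tied lowest for 6 genes and mice 1 and 3 for 3 each. Among *Cfb*-/- controls, mouse 3 was the highest for 6 genes and mouse 1 for 4. WT controls had no such order, since mouse 2 was the highest for 7 genes and the lowest or tied lowest for 3, mouse 1 the highest for 3 and the lowest or tied lowest for 6, and mouse 3 the highest for 0 and the lowest or tied lowest for 7.

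This joint variation was measured with *Upk2* as reference, from deviations of log2(FPKM + 0.1) from the group means over 14 mice. The correlation with *Upk1a* was r = 0.986 (exact permutation within groups over 20736 assignments, p = 2.89e-04, Benjamini-Hochberg adjusted p = 0.00260 over the 9 relations; rho = 0.950, permutation p = 3.86e-04). For *Upk1b*, *Upk3a*, *Krt5*, and *Krt15*, r was 0.964, 0.938, 0.922, and 0.942, each with an adjusted permutation p of 0.0144, and rho was 0.832, 0.856, 0.794, and 0.816. For *Upk3b* r was 0.864 (adjusted permutation p = 0.0144, rho = 0.816), for *Grhl3* 0.824 (0.0122, rho = 0.731), and for *Psca* 0.80 (0.0268, rho = 0.700). *Krt14*, listed at 0 in most mice, did not pass, with r = 0.754 (exact permutation p = 0.0799) and rho = 0.449 (exact permutation p = 0.237). Thus 8 of 9 relations passed by either coefficient. The genes were chosen with a urothelial score of these mice already known, so these p-values describe the mice and are not independent evidence.

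WT diabetic mouse 1 and *Cfb*-/- control mouse 2 were the farthest from the median of *Upk2*. Without both mice, r with *Upk2* was 0.954 for *Upk1a*, 0.844 for *Upk1b*, 0.774 for *Upk3a*, 0.692 for *Upk3b*, 0.676 for *Grhl3*, 0.551 for *Psca*, 0.753 for *Krt5*, 0.390 for *Krt14*, and 0.762 for *Krt15*. Without WT diabetic mouse 1 alone, 1 of 9 relations passed, by either coefficient, with a median r of 0.843. By rho, 1 relation passed without *Cfb*-/- control mouse 2 or without *Cfb*-/- diabetic mouse 4. Omission of *Cfb*-/- control mouse 1 or 3, or of WT diabetic mouse 3 or 4, left 4 by rho, omission of WT diabetic mouse 2 left 5, and 2 passed with a pseudocount of 0.01 (4 by r). Over all 45 pairs of the 10 genes the median r was 0.856 (0.474 to 0.986), and 34 pairs were above 0.8. Beyond the 2 mice that stood apart, the tetraspanins followed *Upk2* most closely, and *Psca* and *Krt14* least.

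The proportions of the genes also differed between mice. The ratio of *Upk2* to *Upk1a* was 0.519, 0.560, and 0.730 in WT diabetic mice 2, 3, and 4 and 0.740 and 0.537 in *Cfb*-/- controls 1 and 3. In *Cfb*-/- diabetic mice 1 to 4 it was 0.0558, 0, 0.0584, and 0.0901, although *Upk1a* was at 0.848 to 1.51 FPKM there. It was 0 in WT diabetic mouse 1, 0.164 in *Cfb*-/- control mouse 2, and 0.180, 0, and 0 in WT controls. *Upk1a* was therefore measured in the *Cfb*-/- diabetic mice with little of its partner. The ratio of *Psca* to *Upk1a* in *Cfb*-/- diabetic mice (2.41 to 7.61) overlapped that in WT diabetic mice (1.75 to 7.10) and in *Cfb*-/- controls (1.77 to 4.46) and lay above that in WT controls (0.163 to 1.89). These ratios were examined after the values had been seen and were not tested.

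**Figure D2:**
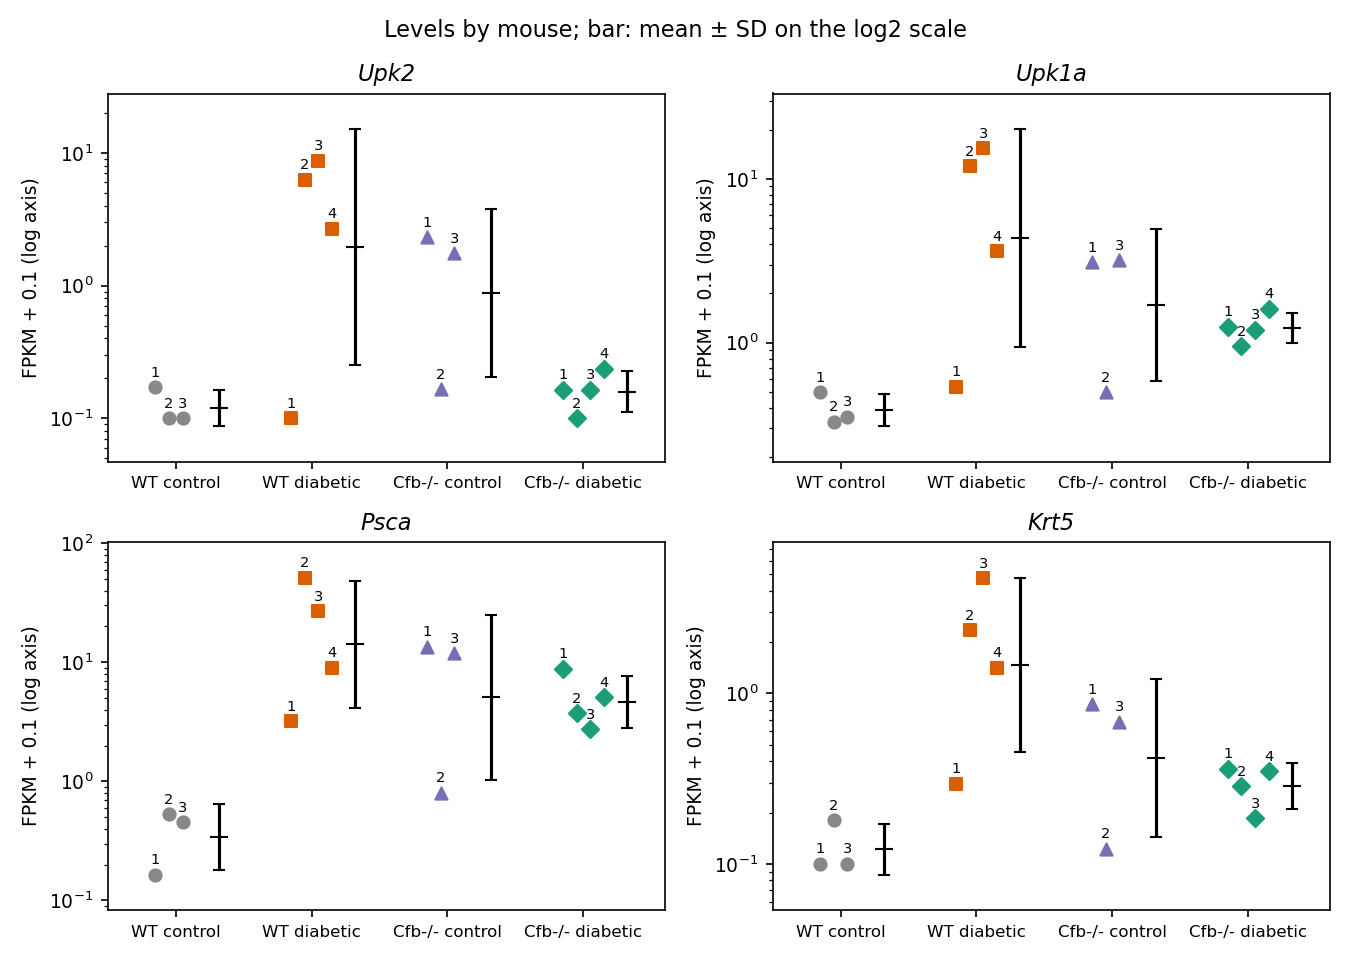
FPKM + 0.1 (log axis) of *Upk2*, *Upk1a*, *Psca*, and *Krt5* in each mouse by group, with the mouse number above each point and a bar for the mean ± SD on the log2 scale. WT diabetic mouse 1 and *Cfb*-/- control mouse 2 are the lowest of their groups in all 4 panels. *Psca* in *Cfb*-/- diabetic mice lies above all WT controls but overlaps the *Cfb*-/- controls.

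The change with diabetes was measured in each genotype with limma on log2(FPKM + 0.1), in 1 fit of the 14912 genes and 14 mice. The added 0.1 FPKM shrinks the measured change of genes that low. In WT mice the estimates of all 10 urothelial genes were above 0 with diabetes. Apart from *Krt14*, each had a Benjamini-Hochberg adjusted p under 0.05, where 46.1% of all tested genes were called and 36.2% were called as higher. *Krt14* passed the filter on low values only through the WT diabetic mice, with 1 of the other mice at 0.1 FPKM or more. Its rise is therefore given as a description and without a p-value. The other 9 genes passed without the WT diabetic mice as well. The median log2 fold change of the 10 genes was 3.54 (1.50 to 5.37), against 0.29 over all tested genes, and it was 1.67 with a pseudocount of 1 and 5.54 with a pseudocount of 0.01. This comparison shares the WT diabetic mice with the one that the genes were proposed from, so the direction is not independent of their choice.

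In WT mice *Psca* rose the most, by 5.37 on the log2 scale (SE 0.98, limma adjusted p = 6.37e-04), and each diabetic mouse was above each control mouse. The uroplakins rose by 3.49 (SE 0.91, limma adjusted p = 0.00680) for *Upk1a*, 3.88 (SE 1.02, adjusted p = 0.00704) for *Upk1b*, 4.03 (SE 1.22, adjusted p = 0.0158) for *Upk2*, 4.14 (SE 1.38, adjusted p = 0.0252) for *Upk3a*, and 3.21 (SE 0.86, adjusted p = 0.00811) for *Upk3b*. *Grhl3* rose by 2.02 (SE 0.33, limma adjusted p = 3.23e-04), which was the smallest p of the 10 genes although its levels stayed under 0.6 FPKM. The basal keratins rose by 3.59 (SE 0.78, limma adjusted p = 0.00226) for *Krt5* and 3.49 (SE 1.06, adjusted p = 0.0162) for *Krt15*. The estimate for *Krt14*, given as a description, was 1.50 (SE 0.51). The diabetic and control mice did not overlap for 5 of the 10 genes (*Upk1a*, *Upk3b*, *Grhl3*, *Psca*, and *Krt5*), where 35.5% of all tested genes were higher without overlap. For the other 5 genes WT diabetic mouse 1 lay within the range of the WT controls. The call of *Upk3a* was lost under several alternatives (limma adjusted p = 0.0671 without WT diabetic mouse 2), as was that of *Upk2* without WT control mouse 2 (adjusted p = 0.0565).

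In *Cfb*-/- mice no urothelial gene was called with diabetes, where 33.8% of all tested genes were called. None of the 10 had an unadjusted limma p under 0.05, against 43.5% of all tested genes. All 10 estimates were below 0, with a median of -0.50 (-2.46 to -0.08) against 0.22 over all tested genes. The lowest was *Upk2*, at -2.46 (SE 1.22, limma adjusted p = 0.136), followed by *Upk3a* at -1.63 (SE 1.38, adjusted p = 0.387) and *Upk1b* at -1.01 (SE 1.02, adjusted p = 0.472). *Psca* at -0.13 (SE 0.98) and *Upk3b* at -0.08 (SE 0.86) were near 0, and both estimates turned above 0 when single mice were left out. The groups overlapped for all 10 genes, where 33.6% of all tested genes were higher and 8.64% lower without overlap. With only the compared groups in the fit, or without *Cfb*-/- control mouse 2, *Upk2* was called as lower (adjusted p = 0.0459 and 0.0474).

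**Figure D3:**
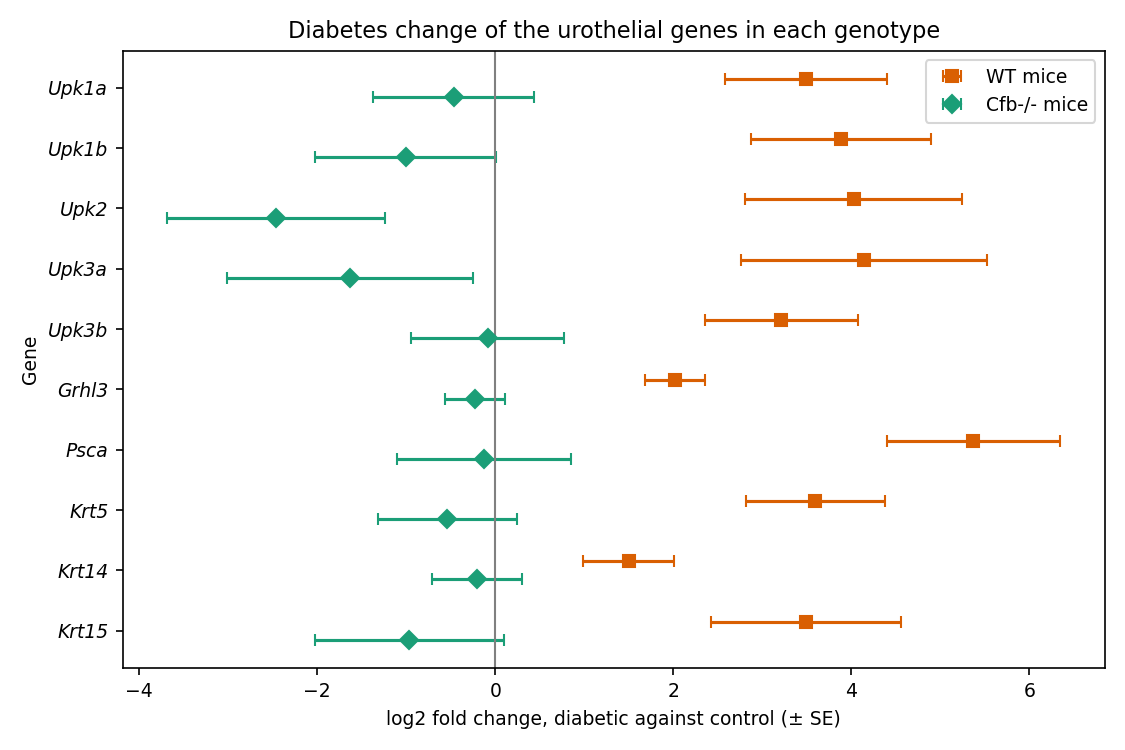
Log2 fold change of each urothelial gene between diabetic and control mice, with bars of ± SE, in WT mice (squares) and in *Cfb*-/- mice (diamonds). The WT estimates run from 1.50 to 5.37, and the *Cfb*-/- estimates from -2.46 to -0.08.

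The comparison of *Cfb*-/- with WT controls uses none of the diabetic mice, but the genes were chosen with earlier results of the controls also known, so it is not independent of the choice. All 10 estimates were above 0, with a median of 2.20 (0.23 to 3.89) against 0.06 over all tested genes, and none was called. The median was 0.74 with a pseudocount of 1 and 3.73 with a pseudocount of 0.01. Only 0.00671% of all tested genes were called there, which was *Cfb* alone. An unadjusted limma p under 0.05 was found for 4 of the 10 genes (*Psca*, *Grhl3*, *Upk2*, and *Upk1a*), all higher in *Cfb*-/- mice, against 9.86% of all tested genes in that direction and 17.5% in either. The largest difference was in *Psca*, at 3.89 (SE 1.04, limma adjusted p = 0.236), and it was the only 1 of the 10 genes without overlap, where 6.67% of all tested genes were higher without overlap. *Upk2* was at 2.87 (SE 1.30, limma adjusted p = 0.279), with *Cfb*-/- control mouse 2 at 0.0651 FPKM against 0 to 0.0720 FPKM in WT controls.

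In the comparison that the genes were proposed from, *Cfb*-/- against WT diabetic mice, all 10 estimates were below 0 with a median of -2.0 (-3.62 to -1.26). The estimates were -1.82 (SE 0.84) for *Upk1a*, -1.61 (SE 0.90) for *Psca*, and -1.46 (SE 0.80) for *Upk3b*. These values chose the genes, so nothing is read from them or from the overlaps that follow. Only *Grhl3* did not overlap between the groups, where 0.885% of all tested genes were lower without overlap. For the other 9 genes WT diabetic mouse 1 lay below at least 1 *Cfb*-/- diabetic mouse. Without that mouse the median was -2.98, and without WT diabetic mouse 3 it was -1.45. The difference between the diabetes changes of the genotypes, which contains this comparison, had a median of -4.30 (-6.49 for *Upk2* to -1.71 for *Krt14*) and was not tested.

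Other genes of the urothelium were examined in 3 lists. Of 20 other genes of umbrella cell differentiation, 14 were tested, of which 12 rose with diabetes in WT mice and 0 fell, while 6 rose and 1 fell in *Cfb*-/- mice. Over all tested genes, 36.2% rose and 9.97% fell in WT mice, and 27.4% rose and 6.4% fell in *Cfb*-/- mice. They did not follow a single course. *Gsdmc2* and *Gsdmc3*, gasdermin genes, and *Sprr2a1*, *Sprr2a3*, and *Ly6d*, genes of cornified and stratified epithelia, had a correlation above 0.8 with the mean within-group deviation of the 10 genes, as did 0.758% of all other tested genes. *Krt20*, a keratin of mature umbrella cells, did not, with r = -0.26. It rose by 4.78 (SE 0.24, limma adjusted p = 2.50e-08) in WT mice and by 4.14 (SE 0.24, adjusted p = 1.28e-07) in *Cfb*-/- mice. It was at 3.85 FPKM in WT diabetic mouse 1, where *Upk2* was at 0, and at 3.73, 3.68, and 4.08 FPKM in WT diabetic mice 2 to 4. The genes of injured tubules described below also rose in both genotypes, and which cells held the *Krt20* RNA was not tested. *Sprr1a*, a cornified envelope gene, rose by 6.81 (SE 0.79, limma adjusted p = 2.38e-05) in WT mice and was at 11.1 FPKM in mouse 1 and at 44.1, 55.1, and 21.4 FPKM in mice 2 to 4. *Krt7* and *Cldn4*, abundant genes of the list and also genes of collecting ducts and injured tubules, rose in both genotypes and had r values of -0.13 and 0.06. The gene that fell in *Cfb*-/- mice was *Sprr2a3*. *Snx31*, another gene of the list, named after its values were seen, had r = 0.66. It was not called in WT mice (log2 fold change -0.05, limma adjusted p = 0.920) or in *Cfb*-/- mice (-0.64, adjusted p = 0.164). *Snx31* was at 2.08 to 3.29 FPKM in WT controls, where *Upk2* was near 0, and at 1.01 to 1.76 FPKM in *Cfb*-/- diabetic mice. The *Gsdmc* genes and the *Sprr2a* genes are close copies of each other, so their values may share reads.

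Of 16 other genes of basal cells and their adhesion, 9 were tested, 5 rose with diabetes in WT mice and 4 in *Cfb*-/- mice, and 0 fell. None of the 9 had an r above 0.8. *Cdh3*, which encodes P-cadherin, rose by 2.30 (SE 0.31, limma adjusted p = 6.66e-05) in WT mice and by 2.18 (SE 0.31, adjusted p = 1.09e-04) in *Cfb*-/- mice, and *Itgb4*, the integrin of hemidesmosomes, rose by 2.24 (SE 0.30) and 1.96 (SE 0.30). *Lamb3*, a laminin chain of the same junctions, had r = 0.78 and rose in WT mice alone, by 1.93 (SE 0.42, limma adjusted p = 0.00212) against 0.83 (SE 0.42, adjusted p = 0.140) in *Cfb*-/- mice; the difference was not tested. *Aqp3* and *Perp*, the most abundant of the list, were not called in either genotype. *Krt6a* and *Dsg3* were at 0 in all mice.

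Of 10 transcription factors of urothelium, 9 rose and 1 fell with diabetes in WT mice, and 4 rose and 1 fell in *Cfb*-/- mice. An r above 0.8 was found for 4 of the 10, namely *Foxa1* (0.95), *Trp63* (0.90), *Ehf* (0.88), and *Grhl1* (0.87). *Foxa1*, a forkhead factor of differentiated urothelium, was at 0, 0.829, 1.45, and 0.396 FPKM in WT diabetic mice 1 to 4 and at 0.209, 0, and 0.535 FPKM in *Cfb*-/- controls 1 to 3. It reached 0.0615 FPKM at most in *Cfb*-/- diabetic mice and was at 0 in each WT control, so it was high in the same 5 mice as *Upk2*. *Elf3* and *Gata3*, which collecting ducts also express, rose in both genotypes, and their r values were 0.39 and 0.18.

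The 10 genes most like the urothelial genes, by r of within-group deviations with the mean of the 10 over 14 mice, were *Gsdmc2* (0.982), *Gsdmc3* (0.973), *Sprr2a3* (0.966), *Sptssb* (0.957), *Foxa1* (0.948), *Clca3a2* (0.931), *Fxyd3* (0.916), *Adipor1* (0.916), *Capn13* (0.912), and *Ctse* (0.908). These values share the same libraries. *Gsdmc2* was at 0, 2.54, 3.94, and 0.906 FPKM in WT diabetic mice 1 to 4, at 0.967, 0.0121, and 1.31 FPKM in *Cfb*-/- controls 1 to 3, at 0.0127 to 0.229 FPKM in *Cfb*-/- diabetic mice, and listed at 0 for each WT control. *Fxyd3*, which encodes a regulator of the sodium pump, was at 0.615, 6.07, 6.81, and 3.26 FPKM in WT diabetic mice and at 2.33, 0.135, and 2.32 FPKM in *Cfb*-/- controls. *Adipor1*, an adiponectin receptor gene, ranged only from 40.6 to 48.5 FPKM over all mice, so its likeness concerns small differences in an abundant gene.

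Markers of other tissues that a kidney piece can hold were read beside these levels, and their part in the differences was not tested. Of 12 genes of the inner medulla and its collecting ducts, 11 were tested, 2 had an r above 0.8 (*Akr1b3*, the aldose reductase gene, and *Aqp2*, the vasopressin-regulated water channel gene), and none was at 0 in all mice. With diabetes 4 rose and 1, *Fxyd2*, fell in WT mice (median log2 fold change 0.72), while 0 rose and 0 fell in *Cfb*-/- mice (median -0.09). Between control mice the median was 0.40 with none called. The medians thus had the same signs as those of the urothelial genes. The largest rise called in WT mice was that of *Slc5a3*, by 1.75 (SE 0.45, limma adjusted p = 0.00594). *Akr1b3* was at 23.1, 122, 71.4, and 27.9 FPKM in WT diabetic mice 1 to 4, at 50.1, 22.8, and 44.7 FPKM in *Cfb*-/- controls 1 to 3, from 22.4 to 27.3 FPKM in *Cfb*-/- diabetic mice, and from 24.9 to 35.5 FPKM in WT controls. *Slc14a2*, the urea transporter gene of the inner medulla, singled out after its values were seen (r = 0.80), was at 0.111, 25.7, 16.4, and 2.78 FPKM in WT diabetic mice, at 5.95, 1.39, and 15.5 FPKM in *Cfb*-/- controls, at 0.696, 0.161, 3.55, and 9.91 FPKM in *Cfb*-/- diabetic mice, and at 0.120, 3.93, and 0 FPKM in WT controls. It was thus low in WT diabetic mouse 1 and high in several mice with high uroplakins, but *Cfb*-/- diabetic mouse 4 had 9.91 FPKM of *Slc14a2* with 0.136 FPKM of *Upk2*. The summed level of the 12 genes was 1613 to 2330 FPKM in WT diabetic, 1572 to 1835 in *Cfb*-/- diabetic, 2103 to 2447 in *Cfb*-/- control, and 2168 to 3780 in WT controls, and was led by *Fxyd2* and *Aqp2*, which other tubule segments also express in part.

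Of 10 smooth muscle genes, as found in the wall of the pelvis and in vessels, 8 rose with diabetes in WT mice and 6 in *Cfb*-/- mice, and 1 had an r above 0.8. This was *Actg2*, the enteric smooth muscle actin gene, at 0.152, 1.97, 5.77, and 0.493 FPKM in WT diabetic mice 1 to 4, at 0.429, 0.0691, and 0.474 FPKM in *Cfb*-/- controls 1 to 3, from 0.0705 to 0.248 FPKM in *Cfb*-/- diabetic mice, and from 0 to 0.0761 FPKM in WT controls. The summed level of the 10 was 95.3 to 135 FPKM in WT diabetic, 92.3 to 129 in *Cfb*-/- diabetic, 68.1 to 74.1 in *Cfb*-/- control, and 59.0 to 72.5 in WT controls. Of 10 mesothelium genes, 7 were tested, 3 rose in each genotype, and only *Msln*, the mesothelin gene, had an r above 0.8 (0.87). *Msln* was at 0.0852, 0.637, 1.10, and 0.640 FPKM in WT diabetic mice, at 0.219, 0, and 0.508 FPKM in *Cfb*-/- controls, at 0.0397 to 0.244 FPKM in *Cfb*-/- diabetic mice, and at 0 in WT controls. The summed level of the mesothelium genes was 49.9 to 72.6 FPKM in WT diabetic, 51.3 to 64.1 in *Cfb*-/- diabetic, 46.6 to 76.7 in *Cfb*-/- control, and 33.1 to 58.4 in WT controls.

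Skin is another source of *Krt5*, *Krt14*, and *Krt15*. Of 10 epidermis genes, 4 (*Krt77*, *Flg2*, *Krtdap*, and *Lce1a1*) were at 0 in all mice, and none of the 4 tested had an r above 0.8. Their summed level was 2.80 to 5.06 FPKM in WT diabetic, 3.07 to 6.45 in *Cfb*-/- diabetic, 1.82 to 2.26 in *Cfb*-/- control, and 1.92 to 3.13 in WT controls. Of 10 adipocyte genes, 9 were tested and none had an r above 0.8 (0.76 for *Fabp4*, a fatty acid carrier gene). With diabetes 7 rose and 1 fell in WT mice (median log2 fold change 1.71) and 1 rose and 1 fell in *Cfb*-/- mice (median -0.94), and between control mice the median was 1.26 with none called. The list thus moved in the same directions as the urothelial genes in these comparisons, and its part in their differences was not tested. *Cfd*, the adipsin gene, was at 9.39 FPKM in WT diabetic mouse 1, at 5.56, 25.5, and 7.44 FPKM in mice 2 to 4, at 6.01 FPKM in *Cfb*-/- control mouse 1, at 0.0755 FPKM in WT control mouse 2, and at 0 in all others. The summed level of the 10 adipocyte genes was 64.7 to 108 FPKM in WT diabetic, 36.7 to 48.1 in *Cfb*-/- diabetic, 39.9 to 74.5 in *Cfb*-/- control, and 41.4 to 60.1 in WT controls. *Fabp4* led this sum, at 32.1 to 43.9 FPKM in *Cfb*-/- diabetic mice, where *Cfd* and *Plin1* were at 0. The sum alone therefore does not show that each piece held fat. Of 10 skeletal muscle genes, 5 were tested and 1 (*Actn3*, r = 0.88) was above 0.8, with summed levels of 10.9 to 21.9 FPKM in WT diabetic, 11.3 to 28.3 in *Cfb*-/- diabetic, 13.4 to 16.2 in *Cfb*-/- control, and 14.5 to 26.1 in WT controls. *Pvalb* led this sum, with a mean of 16.1 FPKM over all mice, while *Ckm*, *Myl1*, and *Myh4* averaged 0.0367, 0.0111, and 0.00408 FPKM. The sum alone therefore does not show that each piece held muscle.

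Injured tubules can also express keratins. All 10 genes of injured tubules rose with diabetes in both genotypes, and none had an r above 0.8 with the urothelial genes. Their summed level was 1811 to 2900 FPKM in WT diabetic, 1513 to 3003 in *Cfb*-/- diabetic, 410 to 500.0 in *Cfb*-/- control, and 375 to 439 in WT controls. The sum therefore separated diabetic from control mice in both genotypes. The uroplakin sum was 0.786 to 44.4 FPKM in WT diabetic and 0.304 to 0.770 in WT control mice. These did not overlap, but WT diabetic mouse 1 was only just above WT control mouse 2. Singly, *Upk1b*, *Upk2*, and *Upk3a* did overlap between these groups. In *Cfb*-/- mice the uroplakin sum overlapped, at 1.32 to 3.67 FPKM with diabetes and 0.680 to 9.67 in controls. The part of injured tubules in the urothelial differences was not tested. Of 10 proximal tubule genes, 7 fell in WT mice and 9 in *Cfb*-/- mice, and none had an r above 0.8.

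**Figure D4:**
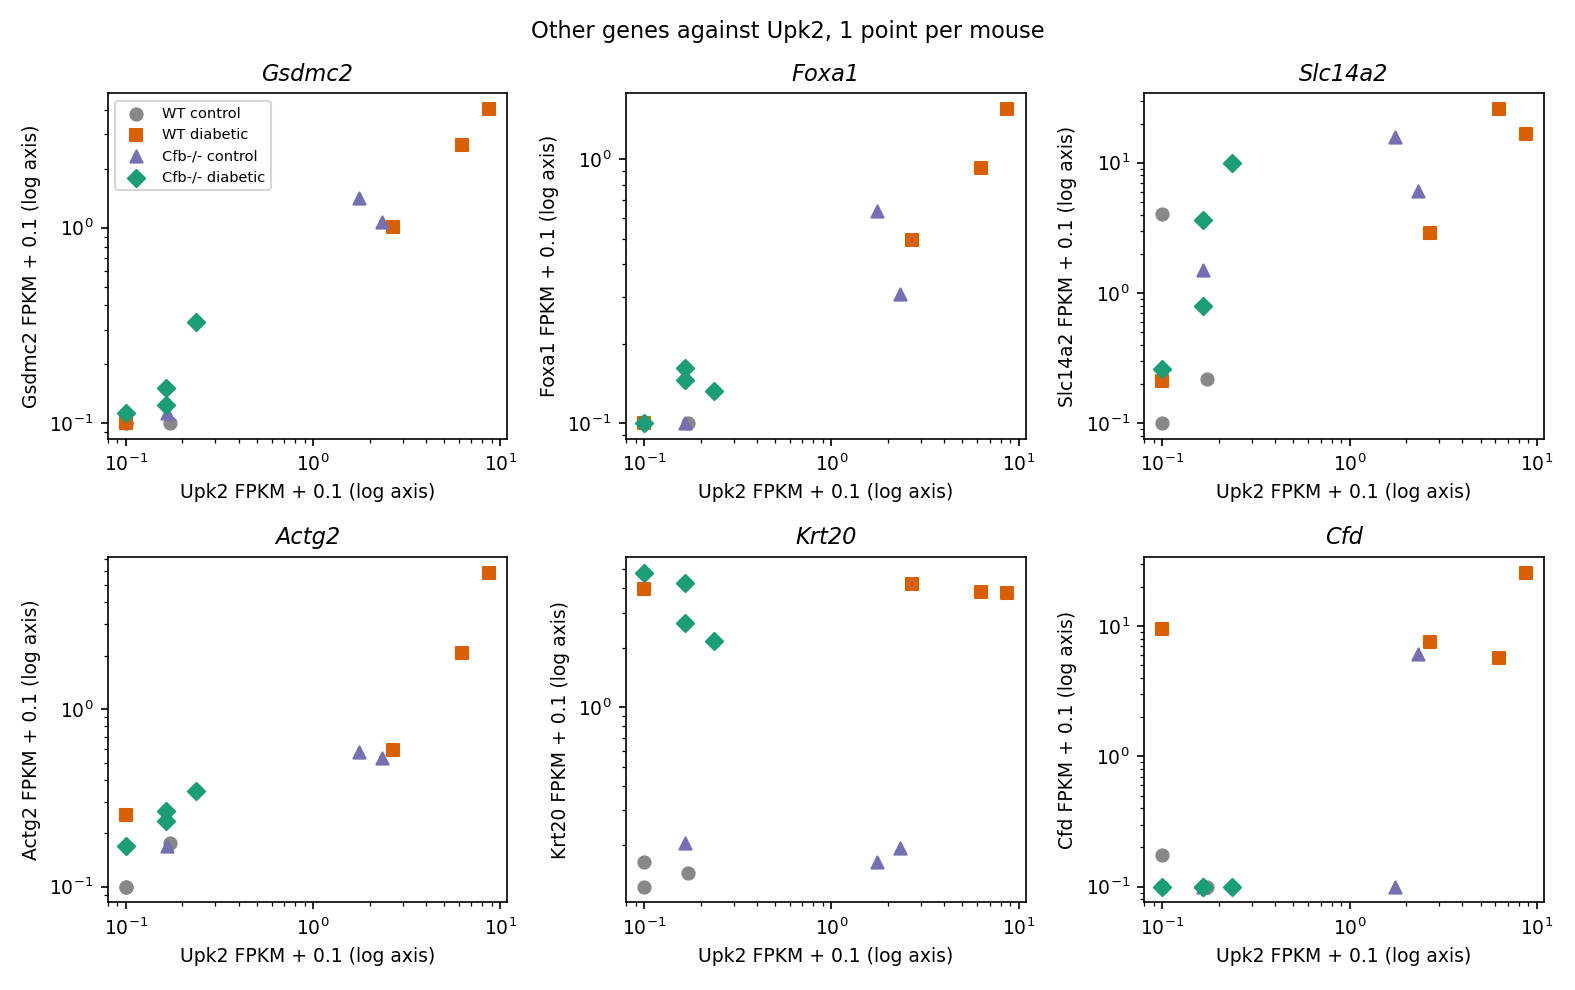
FPKM + 0.1 of *Gsdmc2*, *Foxa1*, *Slc14a2*, *Actg2*, *Krt20*, and *Cfd* against that of *Upk2* in the same mouse, both on log axes, with 1 point per mouse and a marker per group. *Gsdmc2*, *Foxa1*, and *Actg2* climb with *Upk2*, *Slc14a2* does so with wider scatter, *Krt20* separates diabetic from control mice at any level of *Upk2*, and *Cfd* is high in WT diabetic mouse 1, where *Upk2* is at 0.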

How the data were processed

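Kidney RNA of 14 mice in 4 groups was measured with stranded, paired-end mRNA libraries from RNA with an integrity number of at least 7. The authors deposited 1 FPKM value per gene and mouse. The submitters' processing notes name Trimmomatic, HISAT2, Cufflinks, HTSeq, DESeq, and the build GRCm38.p6, without roles. The unit was read from the values, and read counts, which the study's own test needs, were not used here.

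The deposited FPKM were tested with limma (version 3.58.1, R version 4.3.3) with its trend option on log2(FPKM + 0.1) of genes with at least 0.1 FPKM in at least 3 mice. A single fit of all 14 mice had a mean per group and no other term, and p-values were adjusted by Benjamini-Hochberg over 14912 genes. Joint variation was tested by exact permutation within groups. The fit was tested on simulated data. The mice of a group are taken as separate animals, as the study describes them. The members and lists were chosen with earlier results of these data known. Named genes were the 10 members, *Cfb*, up to 3 genes per list by change in WT mice among those called, the 3 most abundant per list, and the 10 most alike genes with at least 1 FPKM in a mouse. Several of the genes that this rule names are not reported here. Alternatives were pseudocounts of 1 and 0.01, no filter or at least 1 FPKM in 3 mice, median-ratio scaling, quantile normalization, a fit of only the compared groups, a block for the replicate number, and omission of each mouse in turn. Motif searches and figures used Python 3.11.15, numpy 2.4.6, pandas 2.3.3, and matplotlib 3.10.9.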

Additional observations from a re-analysis of the deposited data

Results flagged for a closer look

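Of the 20 sets of 4 mice (10 genes in each of the diabetic groups), 1 had a mouse far from the others by Dixon's criterion. *Krt14* in *Cfb*-/- diabetic mice was at 0.0556 FPKM in mouse 4 and at 0 in the other 3, so the gap took up the whole range (ratio 1, against a critical value of 0.829). About 1 set in 20 would be picked out by chance. The value is 1.68 times the smallest *Krt14* value above 0 in any mouse, so it lies at the limit of detection. WT diabetic mouse 1, the lowest of its group for 10 of 10 genes, did not pass the criterion for any of them.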

How the results depend on the processing

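The median difference between the diabetes changes of the genotypes was -4.30 and became -2.15 with a pseudocount of 1 and -6.18 with a pseudocount of 0.01. Without 1 mouse at a time it ran from -5.32 to -3.73, and the median of the comparison in diabetic mice from -2.98 to -1.45. Of the 10 genes, 8 to 10 were called in WT diabetes without 1 mouse at a time, 0 to 1 in *Cfb*-/- diabetes, and 0 in control mice. With all mice, 46.1%, 33.8%, and 0.00671% of all tested genes were called in these comparisons, respectively. Counts of the 10 genes in WT diabetes, here and below, include *Krt14*, which passed the filter only through the WT diabetic mice. *Upk2* was the 1 gene of the 10 called in *Cfb*-/- diabetes with only the compared groups, where 32.6% of all tested genes were called. Relations with *Upk2* that passed numbered 4 with a pseudocount of 0.01 and 1 to 9 without 1 mouse at a time. In *Cfb*-/- diabetes *Upk3b* turned to 0.052 with a pseudocount of 0.01. Without 1 mouse at a time, the *Cfb*-/- diabetes estimates that changed sign were *Upk3b* (-1.01 to 0.50), *Psca* (-1.45 to 0.58), *Grhl3* (-0.60 to 0.14), and *Krt14* (-0.39 to 0.16), and *Krt14* ran from -0.14 to 0.41 between control mice. None of these reversed values was called, and the cause was not tested. Over all alternatives 496 values kept direction and call, 19 lost the call, 4 gained it, 11 changed sign, and 2 moved.

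With the replicate number as a block, 9 of the 10 genes were called in WT diabetes (*Upk3a* lost, limma adjusted p = 0.0542) and 0 in *Cfb*-/- diabetes. Of all tested genes, 42.1% and 29.9% were called there, respectively. The numbers do not pair the mice, since 3 of 19 same-numbered pairs had a correlation over 0.1 (-0.388 to 0.243).

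Depth is unknown, so how far a listed 0 lies below detection cannot be given. Values under about 0.1 FPKM rest on few fragments, and fold changes there depend on the pseudocount.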
